A study of Mus musculus with 6 samples.

Results

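The transcription factor p53 and 29 genes that regulate it or are known as its targets were followed across 6 RNA-seq libraries of mouse 3T3-L1 cells. The 30 genes were taken from a list of symbols matched to the Ensembl gene identifiers of the deposited tables. All 30 were found among 37312 gene entries. 3T3-L1 is a fibroblast line from mouse embryos whose cells are pre-adipocytes, able to turn into fat-storing adipocytes when induced.

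The METTL3 experiment had 2 control and 2 METTL3 knockdown libraries, read in single-read mode. METTL3 is the catalytic subunit of the complex that places N6-methyladenosine on mRNA. The FTO experiment had 1 control and 1 FTO knockdown library, read in paired-end mode, and FTO is a demethylase that acts on RNA. All cells were transiently transfected 3T3-L1 cells, and the labels do not say what the control cells received, nor that numbered libraries came from separate cultures. P-values therefore measure the spread between these libraries, which may be technical.

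p53 is a DNA-binding protein kept scarce in unstressed cells by MDM2, which marks it for degradation, and by its partner MDM4. DNA damage and other stresses stabilise the protein, and it then switches on genes that stop the cell cycle, trigger apoptosis, repair DNA or adjust metabolism. Because much of this control acts on the protein, the level of the p53 mRNA says little about its activity. In the mouse, the Cdkn2a locus encodes p19Arf, which inhibits MDM2, and p16Ink4a, which inhibits cyclin D kinases, so its reads cannot be assigned to either product. Established mouse fibroblast lines have often lost p53 or p19Arf function.

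p53 binds DNA as a tetramer, at sites built from paired copies of a 10-base half-site. RefSeq promoter windows (GRCm38.p6, 250 bases before to 50 after a start) were found for 22 of the 30 genes. Those without an entry were Zmat3, Rrm2b, Trp53inp1, Perp, Xpc, Pmaip1, Tnfrsf10b and Ddb2. The p53 half-site consensus is palindromic, so 1 search reads both strands. An exact match lay in 11 of the 32 windows of these genes (34.4%), against 8.36% of all 32851 windows. The 2 Aen windows overlap and hold the same match, and by gene 10 of the 22 had a match. Adjacent half-sites (at most 13 bases apart, each with at most 1 mismatch outside its central C and G) lay in 2 windows, against 2.71% of all windows. The promoters that the results below turn on are shown here, with every match in capitals. Cdkn1a and Ccng1 hold the paired matches and were past 1.5-fold lower in the FTO knockdown. So were Btg2, Fas, Bbc3 and Cdkn2a, whose windows hold no match, and Trp53inp1, which has no window. Trp53, Rchy1, Ppm1d, Aen, Bax, Ei24, Sesn1 and Polk hold a half-site and were not past that limit. Whether a match goes with a change was not tested. Aen and Btg2 had the smallest unadjusted p-values of the members higher and lower in the METTL3 knockdown.
Cdkn1a, upstream start, plus strand, chr17:29090729-29091028: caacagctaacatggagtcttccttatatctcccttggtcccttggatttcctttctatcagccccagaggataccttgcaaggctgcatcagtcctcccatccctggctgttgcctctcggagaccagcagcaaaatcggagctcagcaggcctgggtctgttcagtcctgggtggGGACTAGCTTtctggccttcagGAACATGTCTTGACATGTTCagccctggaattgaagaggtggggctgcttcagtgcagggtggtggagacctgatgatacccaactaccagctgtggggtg
Ccng1, minus strand, chr11:40755237-40755536: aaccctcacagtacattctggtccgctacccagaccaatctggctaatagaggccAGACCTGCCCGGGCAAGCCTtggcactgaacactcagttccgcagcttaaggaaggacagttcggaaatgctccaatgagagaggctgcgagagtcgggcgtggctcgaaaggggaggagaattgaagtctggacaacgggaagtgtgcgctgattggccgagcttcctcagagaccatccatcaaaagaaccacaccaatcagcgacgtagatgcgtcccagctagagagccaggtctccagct
Aen, first of its starts, plus strand, chr7:78895677-78895976: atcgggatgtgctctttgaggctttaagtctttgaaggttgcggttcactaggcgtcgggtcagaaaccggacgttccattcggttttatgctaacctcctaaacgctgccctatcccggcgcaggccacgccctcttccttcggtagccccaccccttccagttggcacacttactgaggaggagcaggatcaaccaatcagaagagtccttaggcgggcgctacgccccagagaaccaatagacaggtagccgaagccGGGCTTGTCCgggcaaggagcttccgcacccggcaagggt
Btg2, minus strand, chr1:134079106-134079405: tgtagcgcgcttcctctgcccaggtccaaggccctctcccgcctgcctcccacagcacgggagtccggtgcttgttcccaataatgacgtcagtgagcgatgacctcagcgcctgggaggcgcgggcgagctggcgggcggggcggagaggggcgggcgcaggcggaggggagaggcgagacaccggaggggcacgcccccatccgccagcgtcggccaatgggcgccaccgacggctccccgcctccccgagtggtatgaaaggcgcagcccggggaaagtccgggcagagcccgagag
In Cdkn1a, the half-sites without a gap between them began at position -51 from the upstream start, and a further half-site began at -73. The window of its other start, chr17:29093519-29093818, held no match. The Ccng1 pair began at -195. The Aen half-site began 10 bases downstream of the first start, and at -121 from the second. No half-site was found in the Btg2 window. A match is a string of letters and shows no binding.

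Counted reads per library ran from 28348179 to 44580722. Mettl3 stood at 25.1 and 28.9 CPM (counts scaled to a common library total with edgeR's TMM factors) in METTL3 control libraries, against 7.68 and 6.55 CPM after knockdown (log2 fold change -1.92, SE 0.16, edgeR adjusted p = 0.161). Fto had 155 CPM in its control library, against 49.2 CPM after knockdown. Both targets were thus lower in the libraries named for them, although Mettl3 missed edgeR's threshold over all genes. DESeq2 called it. All 10 fibroblast and pre-adipocyte markers had at least 50 reads in some library. Adipoq, Lep, Ptprc, Adgre1, Epcam and Krt18, which mark adipocytes, blood cells or epithelium, were at or near 0. Of the 5 adipocyte markers, Fabp4 alone had 50 reads, and of the 4 macrophage markers, 2 did.

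**Figure D1:**
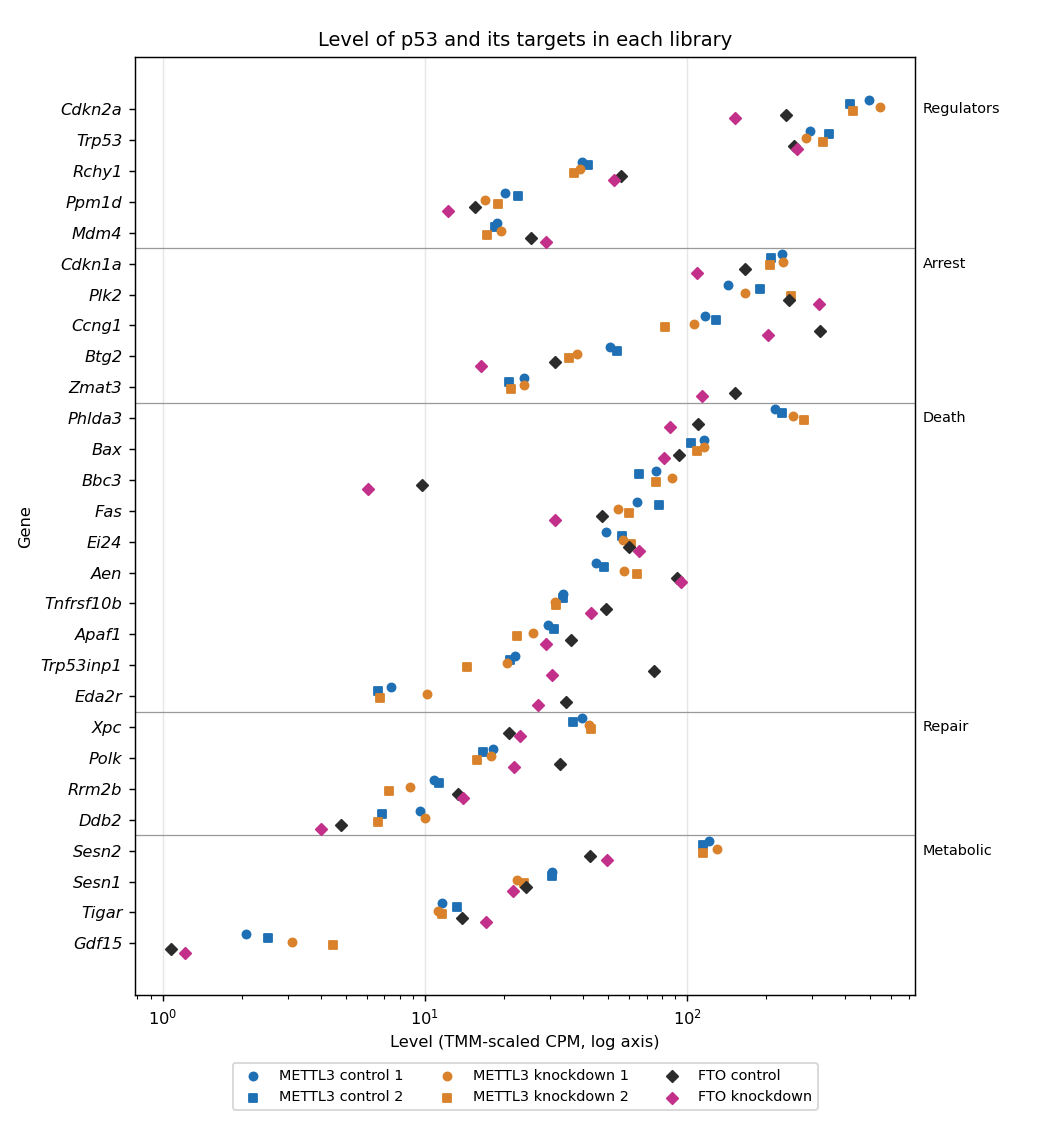
TMM-scaled CPM (log axis) of the 28 detected genes in each of the 6 libraries, ordered by role. Levels run from 1.07 CPM for Gdf15 in the FTO control to 543 CPM for Cdkn2a in the first METTL3 knockdown library, and are not comparable between genes of different length. Bbc3, Zmat3, Trp53inp1 and Eda2r lie far apart between the METTL3 and FTO experiments.

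Per unit of gene length, the most abundant member in the METTL3 controls was Cdkn2a, at a mean of 361 RPKM in the deposited values. It was followed by Phlda3 (133 RPKM), Bax (117 RPKM), Cdkn1a (91.6 RPKM) and Trp53 (73.8 RPKM). These genes encode a protein that lowers AKT signalling (Phlda3), a protein that opens the mitochondrial membrane (Bax), the kinase inhibitor p21 (Cdkn1a) and p53 itself. The least abundant detected member was Eda2r, a death-domain receptor, at 1.11 RPKM. Perp, a membrane protein of apoptosis and cell adhesion, and Pmaip1, the BH3-only protein Noxa, had a count of 0 in every library. A count of 0 allows up to 3 reads in a library, or 0.0673 to 0.106 CPM. None of 18 housekeeping genes was listed at 0.

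In the METTL3 knockdown, no p53 gene passed the test, and p53 mRNA differed by less than the spread between replicates. The question here is what depletion of METTL3 does to transcript levels. Of the 28 members tested, 0 had an edgeR adjusted p under 0.05, against 0.0146% of all 13697 genes. The test did not call Mettl3 itself either (edgeR adjusted p = 0.161), so 0 calls do not show that the members were unchanged. A fit with the replicate number as a block called more genes and members, and is given with the dependence on processing. At an unadjusted p under 0.05 by edgeR there were 5 lower members (background 5.1%) and 2 higher members (background 6.35%). DESeq2 called 1 member, Btg2, lower, against 1.78% of all genes, when run on the genes that passed edgeR's filter. Run on all genes with a read, it called 0 members, against 1.7% of all genes. The all-genes run was made first and the filtered set was chosen after its output was seen, so the Btg2 call rests on that choice. The knockdown libraries lay wholly to 1 side of the controls for 16 members, 11 lower and 5 higher, against 43% of all genes. The median log2 fold change of the members was -0.02 and that of all genes 0.00.

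Among the regulators, Trp53 (ENSMUSG00000059552, chromosome 11, 69580359 to 69591873) stood at 295 and 349 CPM in METTL3 control libraries, against 285 and 331 CPM after knockdown. The groups overlapped, with a log2 fold change of -0.07 (SE 0.13, edgeR adjusted p = 0.889). Mdm4, the MDM2 partner that masks the p53 activation domain, stood at 18.9 and 18.6 CPM in control libraries, against 19.4 and 17.2 CPM after knockdown. It too overlapped (log2 fold change -0.03, SE 0.13, edgeR adjusted p = 0.954). A pseudogene, Mdm4-ps, held 1022 reads over the 6 libraries, so the assignment of reads to Mdm4 is uncertain. Cdkn2a stood at 496 and 417 CPM in control libraries, against 543 and 429 CPM after knockdown, and overlapped (log2 fold change 0.09, SE 0.16). Ppm1d, the phosphatase Wip1 that switches the response off, was at -0.25 on the log2 scale, and Rchy1, the ubiquitin ligase Pirh2, at -0.10. Both were lower in each knockdown library than in either control, and neither passed. Rchy1 shares 680 of its 3773 exon bases with the pseudogene Thap6 on the opposite strand.

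Mdm2 itself, which is both the main inhibitor of p53 and a p53 target, was at 4213 and 4724 CPM in METTL3 control libraries, against 4502 and 4813 CPM after knockdown. The groups overlapped (log2 fold change 0.06, SE 0.11). In the FTO experiment Mdm2 was at 5403 CPM in the control library, against 5257 CPM after knockdown.

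Of the genes of cell cycle arrest, Btg2 and Ccng1 were lower in both METTL3 knockdown libraries than in either control, while the p21 gene overlapped between the groups. Btg2 (ENSMUSG00000020423, chromosome 1, 134075170 to 134079120) encodes an antiproliferative protein that recruits the deadenylase complex to mRNAs. It stood at 50.8 and 54.0 CPM in control libraries, against 38.0 and 35.4 CPM after knockdown. The groups did not overlap, and the log2 fold change was -0.52 (SE 0.10, unadjusted p = 0.00305, edgeR adjusted p = 0.251). Its DESeq2 adjusted p was 0.0454 on the filtered genes and 0.0542 on all genes with a read. Ccng1 (ENSMUSG00000020326, chromosome 11, 40748552 to 40755311) encodes cyclin G1, which recruits a phosphatase to MDM2. Its levels were 117 and 129 CPM in the controls and 106 and 82.4 CPM in the knockdowns. The groups did not overlap here either (log2 fold change -0.38, SE 0.15, unadjusted p = 0.0451, edgeR adjusted p = 0.423). Cdkn1a (ENSMUSG00000023067, chromosome 17, 29090976 to 29100727) stood at 231 and 209 CPM in control libraries, against 231.5 and 207 CPM after knockdown. Each group spanned the same range (log2 fold change 0.00, SE 0.11, edgeR adjusted p = 0.994). The RNA-binding protein gene Zmat3 also overlapped (0.00, SE 0.13). The kinase gene Plk2 overlapped too (0.32, SE 0.23), with 189 CPM in the second control and 167 CPM in the first knockdown library.

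The genes of cell death went in both directions, as did all genes. Aen, a nuclease that degrades DNA and RNA during apoptosis, stood at 45.1 and 48.3 CPM in control libraries, against 57.2 and 64.4 CPM after knockdown. The knockdown libraries were the higher pair (log2 fold change 0.38, SE 0.11, unadjusted p = 0.0152, edgeR adjusted p = 0.349). Apaf1, the scaffold of the caspase-activating apoptosome, stood at 29.6 and 30.9 CPM in control libraries, against 25.8 and 22.4 CPM after knockdown. Here the knockdown libraries were the lower pair (log2 fold change -0.33, SE 0.12, unadjusted p = 0.038, edgeR adjusted p = 0.404). Of the 10 death genes tested, 6 had a positive and 4 a negative log2 fold change, with 0 called. Among all 13697 genes, 6913 were positive and 6784 negative. Fas, a death receptor, was at 64.5 and 77.8 CPM in control libraries, against 54.4 and 59.8 CPM after knockdown (-0.32, SE 0.13, unadjusted p = 0.0528). Phlda3 was at 217 and 231 CPM in control libraries, against 254 and 279 CPM after knockdown (0.25, SE 0.10, unadjusted p = 0.0564). Neither Fas nor Phlda3 overlapped between the groups. Trp53inp1, whose product promotes autophagy and apoptosis, was at 22.1 and 21.1 CPM in control libraries, against 20.6 and 14.5 CPM after knockdown (-0.30, SE 0.19). Bbc3, the BH3-only protein PUMA, was at 76.3 and 65.4 CPM in control libraries, against 87.8 and 75.8 CPM after knockdown (0.21, SE 0.13). For Trp53inp1 the groups did not overlap, with the second knockdown library the lowest, and for Bbc3 they overlapped. Bax (0.04), Tnfrsf10b (-0.09), Ei24 (0.17) and Eda2r (0.27) did not pass. They encode the pore former named above, a TRAIL receptor, a protein of the endoplasmic reticulum and the ectodysplasin A2 receptor.

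Of the 4 repair genes, 1 was lower and 1 higher in both knockdown libraries than in either control, and of the 4 metabolic genes, 2 were lower and 1 higher, against 22% lower and 21% higher of all genes. Rrm2b encodes the p53-inducible ribonucleotide reductase subunit that supplies nucleotides for repair. It stood at 10.8 and 11.3 CPM in control libraries, against 8.77 and 7.32 CPM after knockdown, with no overlap (log2 fold change -0.46, SE 0.16, unadjusted p = 0.0317, edgeR adjusted p = 0.393). Xpc, a damage recognition gene, stood at 39.7 and 36.8 CPM in control libraries, against 42.3 and 43.1 CPM after knockdown, with no overlap (0.16). It did not pass, and the damage recognition gene Ddb2 (0.01) and the translesion polymerase gene Polk (-0.05) did not pass. Ddb2 shares 23.8% of its exon bases with Acp2 on the opposite strand, and Acp2 held 10410 reads over the 6 libraries against 1669 for Ddb2. Whether reads were counted by strand is not given in the sources used here, so the Ddb2 values are uncertain.

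The sestrins Sesn1 and Sesn2 restrain mTORC1 signalling and limit oxidative damage. Sesn1 stood at 30.6 and 30.4 CPM in control libraries, against 22.4 and 23.9 CPM after knockdown. Its groups were well apart (log2 fold change -0.40, SE 0.10, unadjusted p = 0.011, edgeR adjusted p = 0.326). Its paralogue Sesn2 was at 121 and 115 CPM in control libraries, against 129.9 and 114.5 CPM after knockdown, and overlapped (0.05, SE 0.11). Gdf15, a stress hormone of the TGF-beta family, stood at 2.08 and 2.52 CPM in control libraries, against 3.10 and 4.47 CPM after knockdown. The knockdown libraries were higher (log2 fold change 0.72, SE 0.26, unadjusted p = 0.0353, edgeR adjusted p = 0.399). Tigar, a fructose bisphosphatase that diverts sugar into the pentose phosphate pathway, was at -0.13 (SE 0.14). Its groups were barely apart in CPM (11.64 in the first control, 11.63 in the second knockdown library) and overlapped in deposited RPKM.

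**Figure D2:**
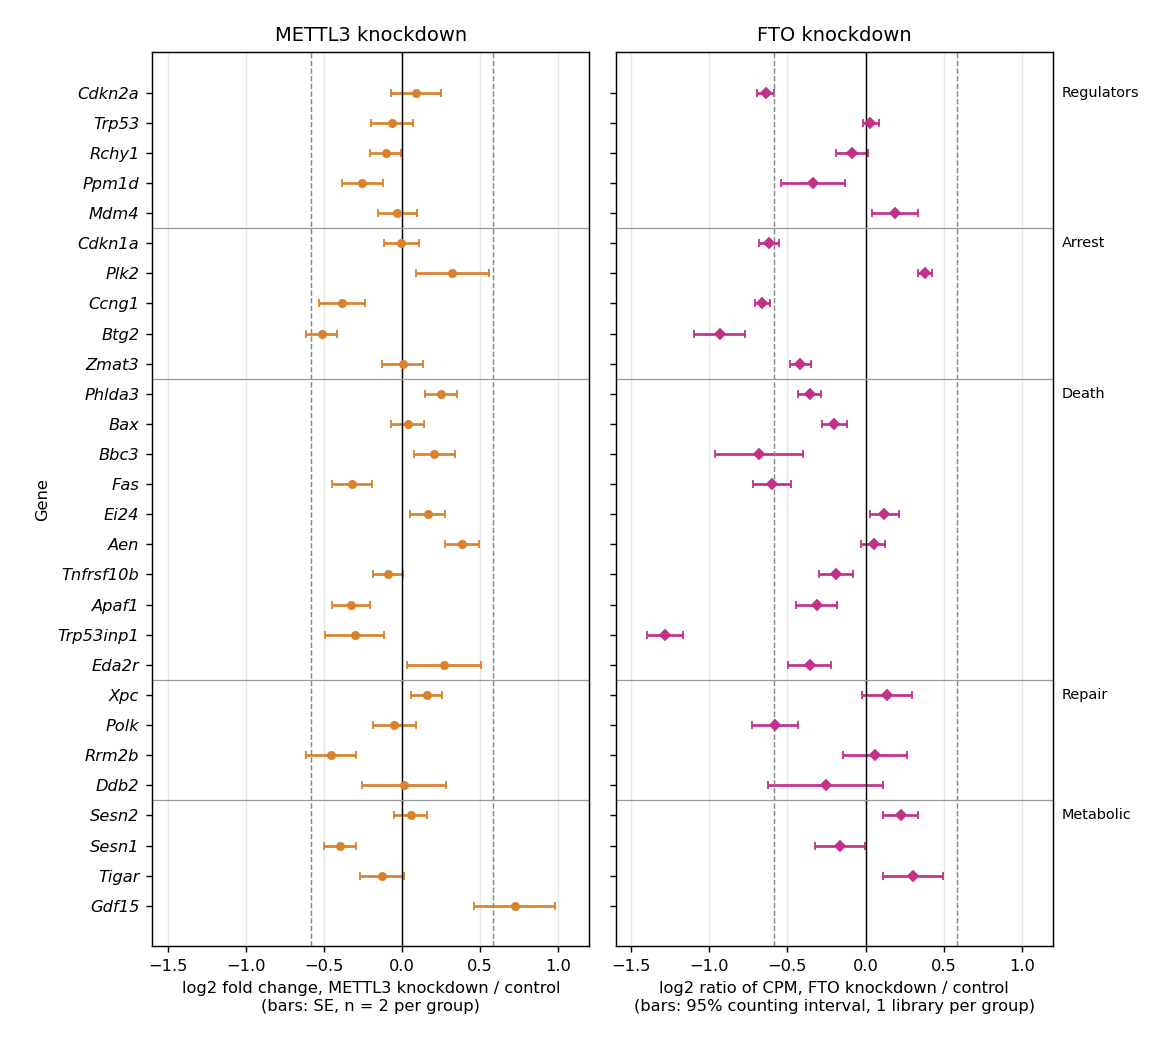
Log2 change of the 28 detected members, by role, in the METTL3 knockdown (left, edgeR estimate with SE, 2 libraries per group) and of the 27 members with at least 50 reads in the FTO knockdown (right, plain ratio of CPM with its 95% counting interval, 1 library per group). Dashed lines mark 1.5-fold; on the right, Trp53inp1 (ratio 0.411) and Btg2 (0.523) lie farthest to the left, while Plk2 (1.30) lies farthest to the right.

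In the FTO knockdown, p53 mRNA was close to its control level and 7 p53 network genes were past 1.5-fold lower. Its question is what depletion of FTO does to transcript levels. With 1 library per group it has no replicate check and no p-value, and changes are log2((CPM + 1)/(CPM + 1)), the knockdown library divided by its control. Genes under 50 reads in both libraries were left out. Of 27 members that met this, 7 were past 1.5-fold lower, against 4.29% of 11432 genes, and 0 were past 1.5-fold higher, against 2.41% (6.7% in either direction). Below 0 lay 18 of the 27 members, against 52.2% of all genes. Their median was -0.21, and that of all genes -0.01. Between the 2 replicates of a METTL3 group, with the same pseudocount of 1 CPM, 0 of 28 members were 1.5-fold apart, against 4.42% of all genes in the controls and 4.56% in the knockdowns. Without a pseudocount, Eda2r (10.2 and 6.76 CPM) and Ddb2 were past it between the knockdown replicates. With the pseudocount, 4 of 38 further p53 targets described below were past it between the control replicates and 5 between the knockdown replicates. With library totals in place of TMM scaling, or with the deposited RPKM, 4 members stayed past 1.5-fold (Cdkn2a, Ccng1, Btg2 and Trp53inp1).

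The largest difference was that of Trp53inp1 (ENSMUSG00000028211, chromosome 4, 11156431 to 11174379). It stood at 74.6 CPM in the FTO control (95% Poisson interval 71.5 to 77.8) and at 30.6 CPM in the knockdown (28.6 to 32.7), a log2 ratio of -1.26. Such intervals hold only counting error, and are too narrow if both ends of a read pair were counted. Btg2 stood at 31.3 CPM (29.3 to 33.4) in the control and 16.4 CPM (14.9 to 17.9) in the knockdown, a log2 ratio of -0.89. For both genes the knockdown level was clear of the counting interval of the control.

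Further arrest genes were past the limit. Ccng1 stood at 321 CPM (314 to 327) in the FTO control library, against 203 CPM (198 to 208) after knockdown, a log2 ratio of -0.66. Cdkn1a stood at 167 CPM (162 to 171) and 109 CPM (105 to 112), a log2 ratio of -0.61. The p21 mRNA was thus at 0.652 times its control level. Zmat3 was at 152 and 114 CPM (log2 ratio -0.41). Plk2 was the exception among the arrest genes, at 244 CPM in the control library, against 318 CPM after knockdown (0.38), the highest value of any member.

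Among the regulators, Trp53 stood at 256 CPM (250.5 to 262) in the FTO control library, against 262 CPM (256 to 268) after knockdown, a log2 ratio of 0.03. These intervals overlapped. Cdkn2a stood at 238 CPM (232 to 243) and 153 CPM (148 to 157), a log2 ratio of -0.64. It was the 1 regulator of 5 past the limit, against 6.7% of all genes in either direction. Ppm1d was at -0.31, Rchy1 at -0.08 and Mdm4, from 25.3 to 28.9 CPM, at 0.18.

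Of the death genes, 8 of 10 were below 0, against 52.2% of all genes. Fas stood at 47.5 CPM (45.0 to 50.1) in the FTO control library, against 31.3 CPM (29.3 to 33.4) after knockdown, a log2 ratio of -0.585 that lies at the limit itself. Bbc3 stood at 9.71 CPM (8.61 to 10.9) and 6.06 CPM (5.19 to 7.03), a log2 ratio of -0.60. Both had knockdown levels below the counting interval of the control. Phlda3 (-0.35), Eda2r (-0.35), Apaf1 (-0.30), Bax (-0.20) and Tnfrsf10b (-0.19) were lower by less. Aen was at 0.05 and Ei24 at 0.12.

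Repair and metabolic genes were not past the limit in the FTO knockdown. Polk stood at 32.6 CPM (30.6 to 34.8) in the control and 21.8 CPM (20.1 to 23.6) in the knockdown, a log2 ratio of -0.56 just inside the limit. Ddb2 was at -0.21, Rrm2b at 0.06 and Xpc at 0.13. Sesn1 was at -0.16, while Sesn2 (0.22) and Tigar (0.28) were higher. Gdf15, with 31 and 35 reads, was below the read minimum.

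**Figure D3:**
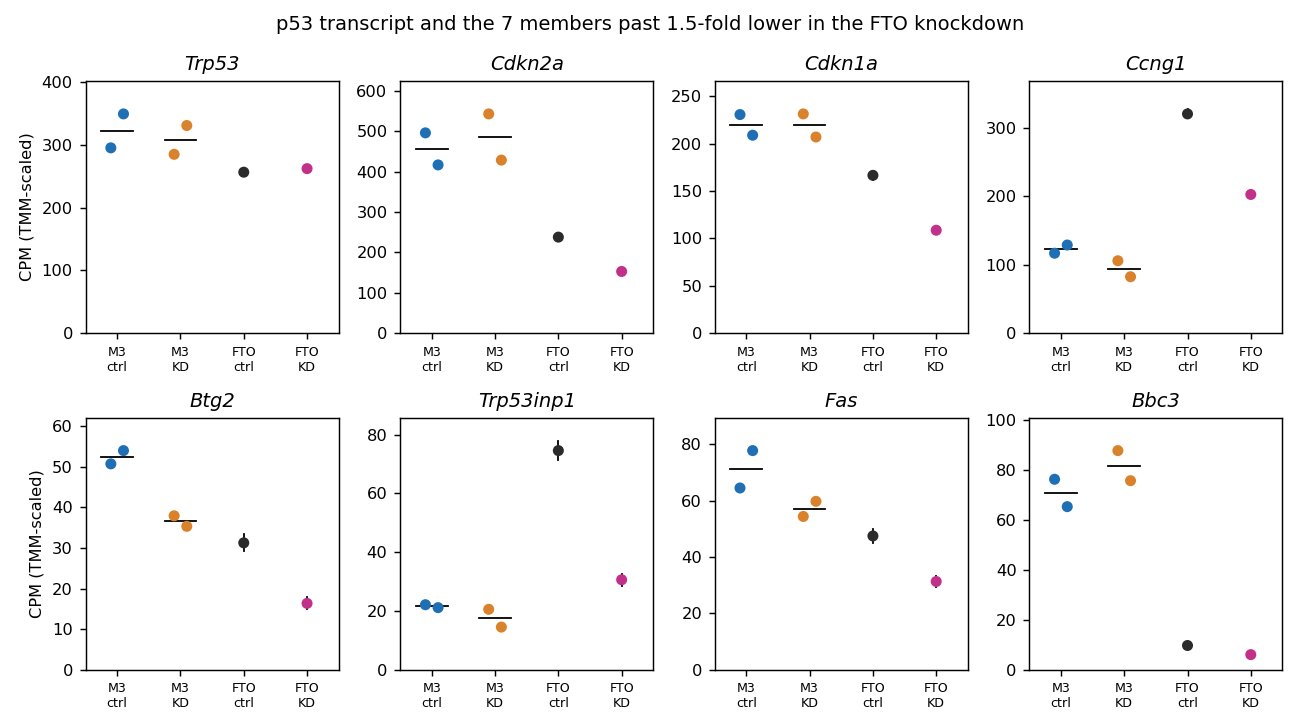
TMM-scaled CPM of Trp53 and of the 7 members past 1.5-fold lower in the FTO knockdown, for METTL3 control, METTL3 knockdown, FTO control and FTO knockdown libraries (M3, METTL3; ctrl, control; KD, knockdown). Points are libraries, with replicate 1 to the left of replicate 2, horizontal lines are means of 2, and vertical lines on FTO points are 95% Poisson intervals, often shorter than the point. Trp53 is similar in the FTO pair (256 and 262 CPM), while each other gene is lower in the FTO knockdown.

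Fibroblast markers were lower in the same library. All 10 markers of fibroblasts and pre-adipocytes were below 0 in the FTO knockdown, against 52.2% of all genes, and 5 were past 1.5-fold lower, against 4.29%. Their summed level was 16700 CPM in the FTO control library, against 12390 CPM after knockdown, with Pdgfra at 507 and 251 CPM. In the METTL3 experiment the summed level ran from 31280 to 32910 CPM in the controls and from 29020 to 32160 CPM in the knockdowns. Single markers differed there too. Thy1 stood at 249 and 162 CPM in control libraries, against 426 and 366 CPM after METTL3 knockdown (log2 fold change 0.94, edgeR adjusted p = 0.296, DESeq2 adjusted p = 0.00708). Pdgfra stood at 921 and 855 CPM, against 718 and 572 CPM (-0.46, edgeR adjusted p = 0.361), and neither marker overlapped between the groups. The part of these marker differences in the p53 values was not tested, and in bulk RNA fewer cells of a kind and less RNA per cell cannot be told apart.

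Further genes of the pathway were counted from lists of upstream factors and of other p53 targets. Of 22 upstream kinases, cofactors and p53 relatives, 21 were tested in the METTL3 comparison and 0 were called by edgeR. At an unadjusted p under 0.05 lay 1 gene, a smaller share than the 11.5% of all genes. It was Trp53bp2, encoding the p53 cofactor ASPP2, at 52.2 and 59.0 CPM in control libraries, against 45.4 and 46.7 CPM after knockdown (-0.27, SE 0.11, edgeR adjusted p = 0.434). In the FTO comparison 20 were measured, and 0 were past 1.5-fold, against 6.7% of all genes. Above 0 lay 12 and below 0 lay 8 (median 0.09), against 52.2% of all genes below 0.

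Of 41 other targets, 38 were tested in the METTL3 comparison, with 0 called by edgeR, and 19 were positive and 19 negative. Gadd45a, a stress sensor of arrest and repair, stood at 31.5 and 20.5 CPM in control libraries, against 43.9 and 44.0 CPM after knockdown (0.76, SE 0.21, unadjusted p = 0.0147, edgeR adjusted p = 0.349). Cgrrf1, a ring finger protein gene, stood at 17.3 and 14.3 CPM in control libraries, against 21.5 and 22.3 CPM after knockdown (0.47, SE 0.14, unadjusted p = 0.0178, edgeR adjusted p = 0.358). Both were higher in each knockdown library than in either control, as were 21% of all genes. These 2 of 38 are no larger a share than the 6.35% of all genes at an unadjusted p under 0.05 and higher.

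In the FTO comparison 36 other targets were measured. Past 1.5-fold lower were 10, against 4.29% of all genes, and 1 was higher, against 2.41%. Below 0 lay 26 (median -0.31), against 52.2% of all genes. Between METTL3 replicates, 10.5% of this list in the controls and 13.2% in the knockdowns were past 1.5-fold. The shares of all genes were 4.42% and 4.56%. Dcxr, a carbonyl reductase gene, was at 42.6 CPM in the control library, against 15.1 CPM after knockdown (-1.44), and Pltp, the phospholipid transfer protein gene, at 29.0 and 11.4 CPM (-1.28). The others lower were Cd82 (-0.93), Ralgds (-0.92), Tap1 (-0.85), Steap3 (-0.84), Ephx1 (-0.84), Tob1 (-0.68), Ak1 (-0.63) and Psrc1 (-0.60). They include a tetraspanin (Cd82), an antigen peptide transporter (Tap1), a metalloreductase (Steap3), an epoxide hydrolase (Ephx1) and an antiproliferative relative of Btg2 (Tob1).

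**Figure D4:**
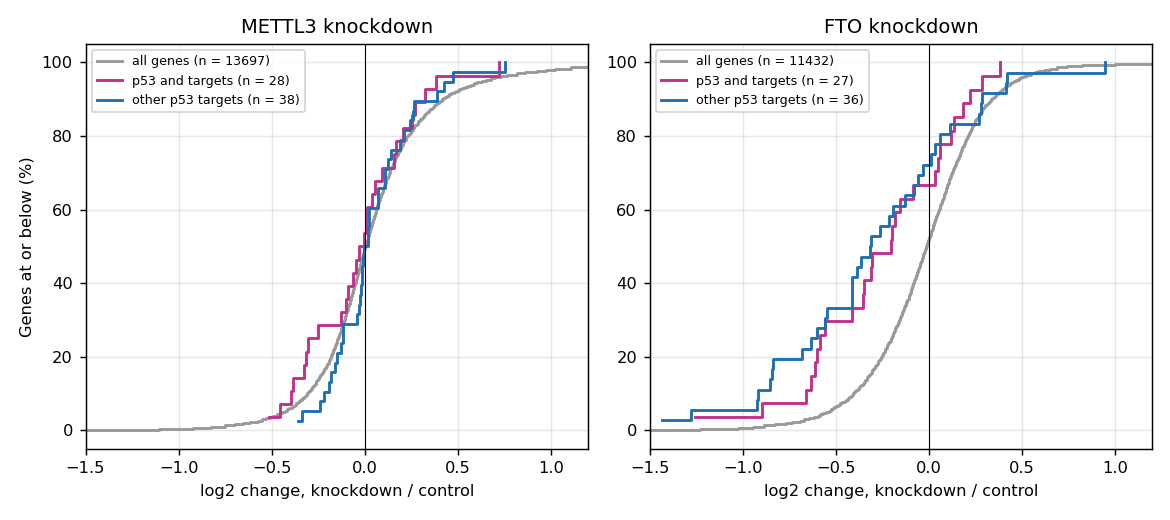
Cumulative share of genes (%) at or below each log2 change in the METTL3 knockdown (left) and the FTO knockdown (right), for all genes, for p53 and its targets and for the list of other p53 targets. On the left the 3 curves cross near 0, with medians of 0.00, -0.02 and 0.00, and on the right both p53 curves lie to the left of all genes below 0, with medians of -0.21 and -0.31 against -0.01.

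Side by side, the METTL3 and FTO comparisons, which share no control library, had the same direction for 16 of 27 members, against 56.7% of 11210 genes. Lower in both were 11 members, against 30.3% of all genes, and higher in both were 5, against 2961 of the 11210 genes. Btg2 was the member lowest in the METTL3 comparison (-0.52) and second lowest in the FTO comparison (-0.89). Ccng1 (-0.38 and -0.66), Trp53inp1 (-0.30 and -1.26), Fas (-0.32 and -0.585) and Apaf1 (-0.33 and -0.30) were also lower in both. With 1 library left out, the METTL3 value ran from -0.58 to -0.22 for Ccng1, from -0.58 to -0.08 for Trp53inp1 and from -0.45 to -0.18 for Fas. Cdkn1a (0.00 and -0.61), Cdkn2a (0.09 and -0.64) and Bbc3 (0.21 and -0.60) were past the limit in the FTO comparison and overlapped between the METTL3 groups. Whether a gene differed between the knockdowns was not tested, since the FTO groups had 1 library each.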

How the data were processed

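For each library the authors deposited 1 table with raw counts and RPKM per Ensembl gene, per the file headers. RPKM values were scaled by the authors to gene length and a read total, neither of which is given in the sources used here. The submitters' processing notes name TopHat2 2.0.9, bedtools and mm10 without saying how each was used. Libraries came from about 2.5 µg of RNA, with reads of 101 bp, per the labels. Symbols came from a separate list of gene names (35449 of 37315 entries matched, 3 repeats left out). Positions came from GENCODE M21 on GRCm38.

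METTL3 groups were compared with edgeR 4.0.16 in R 4.3.3 (filterByExpr, TMM, robust quasi-likelihood, Benjamini-Hochberg over all genes, called under 0.05). SE is the absolute log2 fold change over the square root of F. FTO used a pseudocount of 1 CPM, a minimum of 50 reads and a 1.5-fold limit. DESeq2 1.42.0 and limma 3.58.1 were alternatives. Strand use and treatment of multiply mapped reads were not given in the sources used here. The edgeR step was tested on simulated counts with the same spread setting for all genes. Those counts held no effect shared by libraries of the same number, so the simulation does not cover that feature of the data. All members were named. Per-library values were given for Trp53, Mdm4, Cdkn1a and members at unadjusted p under 0.05 or past 1.5-fold, and for a few others chosen after their values were seen. Members and lists were chosen with earlier results of these data known. The values of 1 gene among the other targets are not reported here, although it is in the counts.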

Additional observations from a re-analysis of the deposited data

Results flagged for a closer look

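Of 27 members, 16 had the same direction in the METTL3 and FTO comparisons, against 56.7% of all genes. Phlda3 and Tigar lay on opposite sides, did not overlap between the METTL3 groups in CPM and had FTO ratio intervals that left out equal levels. Rrm2b also lay on opposite sides without overlap (-0.46 and 0.06), but its FTO ratio interval of 0.905 to 1.2 included equal levels. Bbc3 (0.21 and -0.60), Cdkn2a (0.09 and -0.64) and Eda2r (0.27 and -0.35) also lay on opposite sides, with METTL3 groups that overlapped. Phlda3 was higher in both METTL3 knockdown libraries than in either control (log2 fold change 0.25) and lower in the FTO knockdown (log2 ratio -0.35), with a ratio interval of 0.740 to 0.822. Tigar was lower in both METTL3 knockdown libraries (-0.13) and higher in the FTO knockdown (0.28), with a ratio interval of 1.08 to 1.41. The difference between the comparisons was -0.61 for Phlda3 and 0.41 for Tigar, and it was not tested.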

How the results depend on the processing

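In the METTL3 comparison, 2 genes were called. Without a count filter this was 111, with DESeq2 on the filtered genes 239, and with DESeq2 on all genes with a read 222. Leaving out 1 library gave 2 to 70 genes, with 70 without the first knockdown library and 7 without the second. A lone library was then assumed to vary like the other group. Members called were 0, except 1 (Btg2) with DESeq2 on the filtered genes. The DESeq2 run on all genes was the first made, and the filtered set was chosen after its output was seen. With the replicate number as a block, 3706 genes (27.1%) and 13 of 28 members were called, Plk2 and Bbc3 among them. Libraries with the same number deviated together (r = 0.741 over 13697 genes), but there are only 2 pairs and the labels do not say what a number marks. The members' median, -0.017, ran from -0.089 to 0.042 with 1 library left out. In the FTO comparison, 766 genes were past 1.5-fold, against 381 with a pseudocount of 5 CPM and 440 with deposited RPKM. Members past it were 7, then 5 with a pseudocount of 5 CPM (Bbc3 and Fas out), and 4 with library totals or RPKM. With a GC and length trend removed, chosen after seeing the data, they were 5, with Polk in and Bbc3, Cdkn1a and Cdkn2a out. Some METTL3 directions near 0 turned. Cdkn1a was 0.002 with DESeq2 size factors or DESeq2 and 0.006 with a mean of at least 100 reads. Zmat3 was -0.012 with library totals and -0.001 without a filter, and Ddb2 -0.004 with library totals or voom. With 1 library left out, the range was -0.184 to 0.057 for Trp53, -0.12 to 0.050 for Mdm4, -0.091 to 0.246 for Cdkn2a, -0.087 to 0.069 for Cdkn1a, -0.092 to 0.100 for Zmat3, -0.046 to 0.117 for Bax, -0.058 to 0.529 for Eda2r, -0.312 to 0.274 for Ddb2, -0.144 to 0.035 for Polk, -0.040 to 0.138 for Sesn2, -0.022 to 0.141 for Mdm2 and -0.103 to 0.011 for Fto. The cause of these moves was not tested. With 2 libraries against 2, an exact permutation test cannot go below p = 0.333, and the single FTO libraries allow no test.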

Other observations

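The METTL3 and FTO controls stood far apart in some members, which were chosen after their values were seen. In deposited RPKM, Bbc3 stood at a mean of 32.7 in the METTL3 controls and 3.66 in the FTO control, 8.92 times as high. Sesn2 stood at 31.4 and 9.25 (3.39 times). Zmat3 stood at 2.57 and 14.2 (0.18 times), Eda2r at 1.11 and 4.44 (0.249 times) and Trp53inp1 at 3.10 and 8.72 (0.355 times). Trp53 stood at 73.8 and 48.0 (1.54 times). How many of all genes stood as far apart is not given here. Mitochondrial transcripts held 0.60% and 0.76% of counts in the METTL3 controls, against 4.14% in the FTO control. The experiment and the sequencing mode cannot be told apart, and the read totals behind RPKM were set by the authors for each library.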
